A study of Schizosaccharomyces pombe with 4 samples.

Results

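The genes described here lie near both ends of chromosome II of fission yeast (Schizosaccharomyces pombe). They were chosen by systematic name: genes whose names begin SPBC1348, SPBPB10D8, SPBPB21E7 or SPBC1683 make up the left end, and those that begin SPBPB2B2 or SPBCPT2R1 the right end. Of 5133 genes listed in the deposited tables, 56 belong to this set, 34 at the left end and 22 at the right. Another 5 genes with these prefixes (mal1, ght4, frp1, pcl1 and ght7) were left out by the rule; none of them passed the test, and their log2 fold changes lay between 0.145 and 1.80.

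The data are RNA-seq of total RNA from 2 Y41F and 2 WT libraries, made from log-phase cells kept at 30 °C in the rich medium YEA. The labels name neither the protein that carries Y41F nor any other allele; it is read here as a histone H3 substitution of phenylalanine for tyrosine 41. Y41F library 1 came from strain SPBB297 and Y41F library 2 from strain SPBB298, while both WT libraries came from strain KOR3006. Whether libraries of a group stem from separate cultures is not stated, and the p-values reflect no more than the spread among 4 libraries, which may be technical in WT and includes any difference between both strains in Y41F. Totals were between 20845572 and 23616464 expected counts per library. As these are bulk cultures, fewer cells that transcribe a gene and less RNA per cell cannot be told apart.

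Subtelomeres of fission yeast are packaged in part as heterochromatin, in which the methyltransferase Clr4 marks histone H3 and the protein Swi6 binds the mark. The outermost genes, among them the helicase genes tlh1 and tlh2, carry sequence related to centromeric repeats that recruits the RNA interference machinery, and the telomere protein Taz1 gives a parallel route. Many genes farther in are nearly silent in rich medium, encode transporters and metabolic enzymes, and are known to be induced by starvation or stress. The ends of chromosomes I and II also carry blocks copied between them, so that short reads from one copy can fit another.

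As a set, these genes were weakly expressed. FPKM scales reads by coding length and library total, so it allows levels of different genes to be compared. The median over the 56 genes was 12.1 FPKM in Y41F and 7.58 FPKM in WT, against medians over all genes of 58.9 FPKM in Y41F and 56.6 FPKM in WT. In WT, 21 of the 56 genes (37.5%) had a mean under 5 FPKM, where 4.11% of all genes did. The weakly expressed ones made up 12 of the 22 right-end genes and 9 of the 34 left-end genes. The highest means in WT were those of the phosphate transporter gene pho841 at 119 FPKM and aes1 at 111 FPKM.

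No gene of the set passed the test between Y41F and WT. With edgeR's quasi-likelihood test and Benjamini-Hochberg adjustment, 0 of the 50 genes that passed the expression filter had an adjusted p under 0.05, where 0.0197% of all 5076 genes tested were called higher in Y41F and 0.0% lower. The lowest edgeR adjusted p of the set was 0.0799. At an unadjusted p under 0.05, 9 were higher and 1 lower, where 4.91% of all genes tested were higher and 1.79% lower. DESeq2 called 3 of the set higher and 0 lower, against 1.21% and 0.117% of all genes, and 2 of these 3 share a single set of counts. The fold change (Y41F over WT) was above 0 for 34 of the 50, against 48.7% of all genes. Weakly expressed genes can pass the filter through 1 high group, as SPBCPT2R1.02 did with 0 counts in both WT libraries. The part of this in the 34 was not tested. The libraries of both groups did not overlap for 18 of the 50 with Y41F higher and 4 with Y41F lower, where 19.2% and 18.0% of all genes did so. Without Y41F library 1 edgeR called 8 of the set (7 higher, 1 lower) and 1.28% of all genes (65), and without Y41F library 2 it called 3, all higher, and 3.88% of all genes (197). Without WT library 1 or WT library 2 edgeR called 0 of the set and 0 in all. In a fit that leaves out a library, the group with 1 library is assumed to vary like the other group. Such calls thus hold no spread within the group of 1 library. With limma on log2(FPKM + 1), 1 of the set and 0.0591% of all genes were called. An edgeR fit with a replicate block called 7 of the set, all higher, and 87 of the 5076 genes tested. These 7 include SPBCPT2R1.04c, eno102 and gal10, whose groups overlapped. The labels do not pair libraries of equal number. Genes with identical counts were counted once each in a second tally of 44 tested. Of these, 28 had fold changes above 0, 15 did not overlap with Y41F higher and 4 did not with Y41F lower.

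The other 6 genes did not pass the expression filter: SPBC1348.15, ftm6, SPBC1348.09, SPBCPT2R1.03, ftm7 and SPBPB2B2.07c. DESeq2 and edgeR without the filter included all 6, and 0 of the 6 were called there. Some fits that left out 1 library also included ftm6 and ftm7, and limma included ftm6. SPBC1348.09, annotated as a dehydrogenase, had 5.5 and 7 counts in Y41F, against 1 and 3.5 in WT. SPBPB2B2.07c had 3.98 and 5.53 counts in Y41F, against 3.81 and 0 in WT. SPBC1348.15 and SPBCPT2R1.03 had 2.25 and 0 counts in Y41F, against 0 and 3 in WT, which is at the limit of 3 counts that a count of 0 allows. For SPBC1348.09, SPBPB2B2.07c, SPBC1348.15 and SPBCPT2R1.03, differences in these low counts were not detectable at this depth. The ratio of summed counts was 3.33 for ftm6 (approximate 95% exact interval 1.62 to 7.5, counting error only). For ftm7 it was 5.94 (2.3 to 19.5). The high counts of ftm6 and ftm7 were those of Y41F library 2.

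The median log2 fold change of the tested genes was 0.07 at the left end and 0.52 at the right, against -0.004 over all genes tested. The left-end median is the value of SPBPB10D8.04c, which enters together with SPBPB10D8.05c, SPBPB10D8.06c and SPBPB10D8.07c at identical counts. The right-end median is that of SPBCPT2R1.01c, whose counts are identical to those of left-end SPBC1348.01. Since the ends share such measurements, their medians are not separate. Weakly expressed genes that passed the filter through a high Y41F group enter both medians, and their part was not tested. These medians moved with single libraries. The left-end median was 0.24 without Y41F library 1. Leaving out WT library 1 gave a left-end median of 0.21, and leaving out WT library 2 gave 0.27. For the right end, the median was 0.34 without Y41F library 1. It was 0.32 when WT library 1 was left out and 0.79 when WT library 2 was. Expressed as CPM, which are counts scaled to a common library total by TMM, and summed over all left-end genes, the levels were 1636 and 1919 CPM in Y41F, against 1536 and 1588 CPM in WT. Summed over the right end they were 364 and 343 CPM in Y41F, against 292 and 320 CPM in WT. Both sums were thus slightly higher in Y41F with no overlap. The log2 ratio was 0.19 for the left end (0.07 without Y41F library 2) and 0.21 for the right. Within the left end, the SPBPB21E7 genes summed to 202 and 503 CPM in Y41F, against 165 and 197 CPM in WT. The sum over the SPBC1348 genes was also higher without overlap, while those over the SPBPB10D8 and SPBC1683 genes overlapped. Whether the ends differ from each other was not tested.

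**Figure D1:**
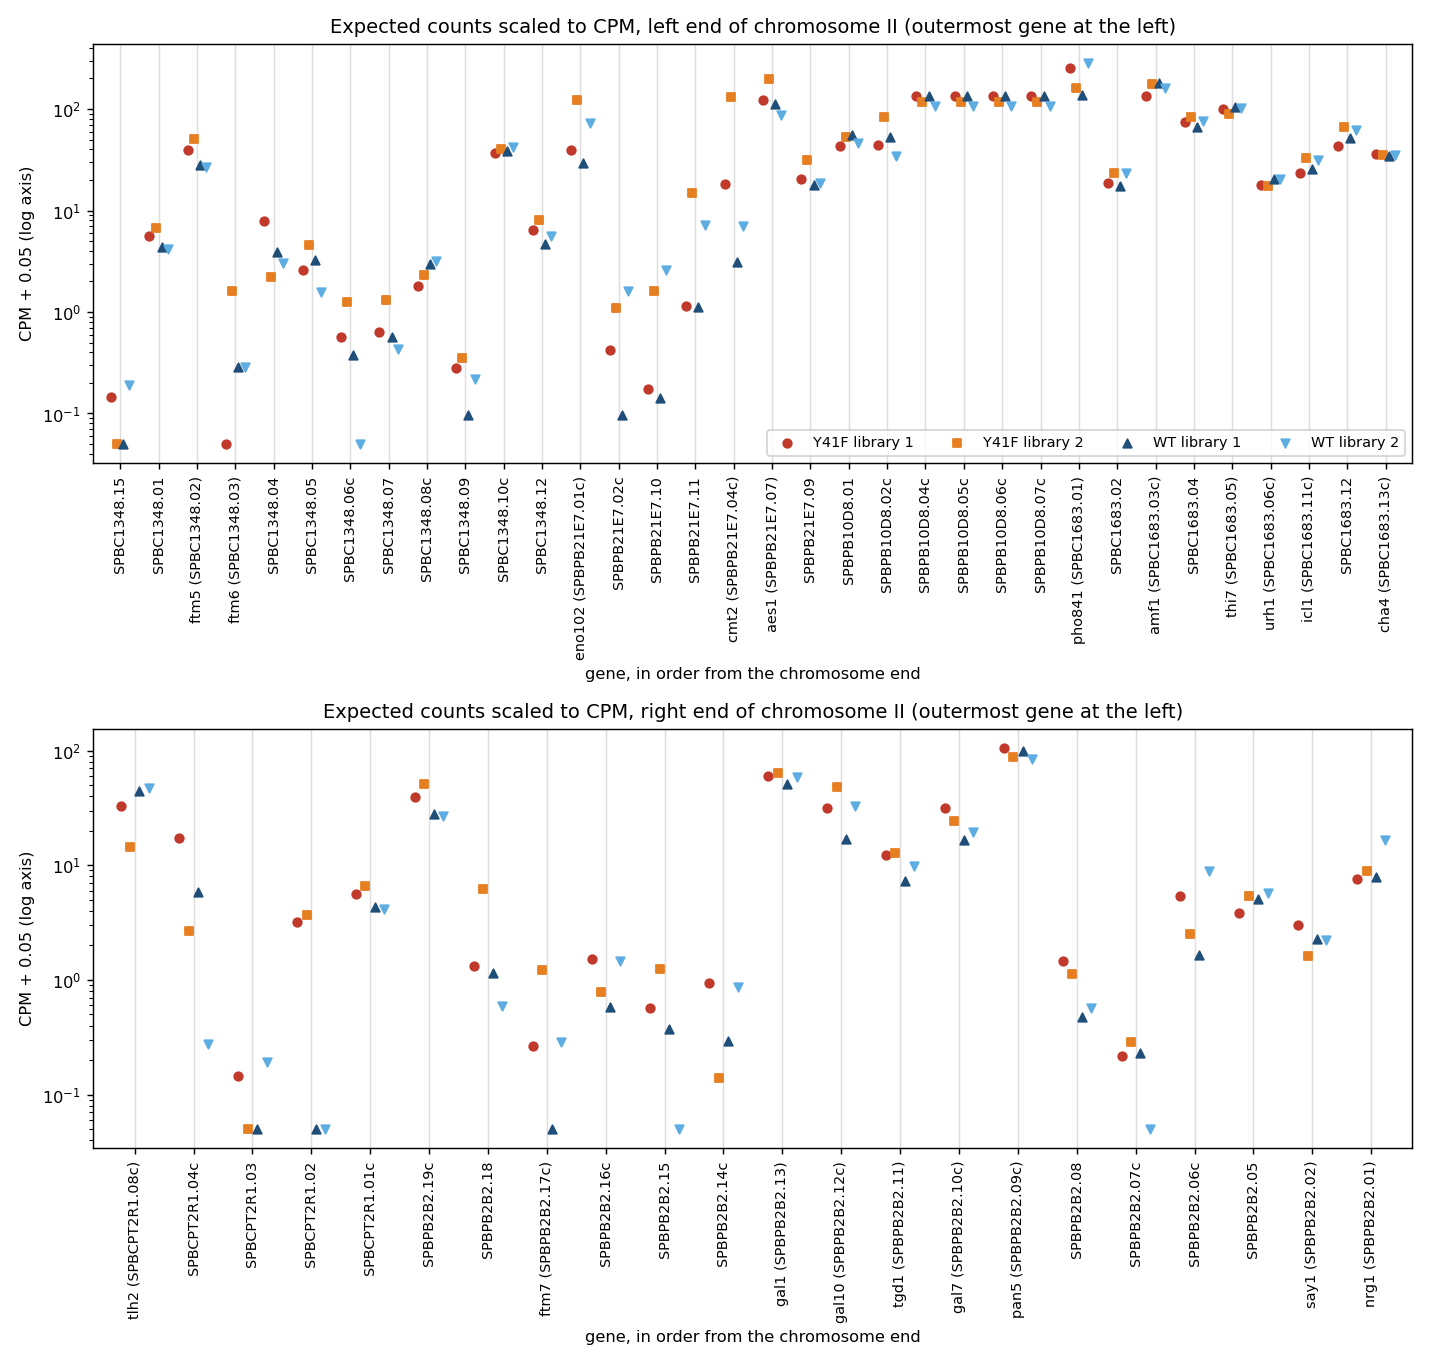
Level of each of the 56 genes in each library, as CPM + 0.05 on a log axis, with genes in order from the chromosome end (upper plot, left end; lower plot, right end). Most of the outermost genes of both ends lie low, with ftm5 and its copy SPBPB2B2.19c (26.9 to 51.0 CPM) and tlh2 (14.3 to 46.8 CPM) above them, and pho841 holds the highest point at 284 CPM.

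Libraries of the same group differed from each other more for the median gene of the set than for the median of all genes. The median absolute log2 difference between library 2 and library 1 was 0.44 in Y41F and 0.33 in WT over the 50 tested genes, against 0.13 in Y41F and 0.11 in WT over all genes tested. Part of the set is weakly expressed, and the part of counting error in this spread was not tested. When each library was left out in turn, the direction stayed the same for 27 of the 50 genes and changed for 23.

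Reads shared between copies enter many of these values. An expected count is fractional where reads fit more than 1 gene and were divided between them. A fractional count occurred in at least 1 library for 29 of the 56 genes (51.8%), 16 at the left end and 13 at the right, against 4.6% of all genes listed. The 5 SPBCPT2R1 genes and 10 of the 12 SPBC1348 genes, which are the outermost stretches, had fractional counts. So did 8 of the 17 SPBPB2B2 genes, 4 of the 6 SPBPB10D8 genes, 1 of the 7 SPBPB21E7 genes and 1 of the 9 SPBC1683 genes. In addition, 15 of the 56 had exactly the counts of another gene in all 4 libraries, so such genes are 1 measurement. The partner of SPBC1348.10c is SPAC977.09c, that of SPBC1348.09 is SPAC977.08 and that of SPBPB2B2.16c is SPAC750.02c, all of chromosome I, and the counts of SPBC1348.10c are whole.

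The outermost genes of both ends mirror each other. Counted inward over annotated protein-coding genes, SPBC1348.15, SPBC1348.01, ftm5, ftm6, SPBC1348.05, SPBC1348.06c and SPBC1348.07 of the left end match SPBCPT2R1.03, SPBCPT2R1.01c, SPBPB2B2.19c, ftm7, SPBPB2B2.16c, SPBPB2B2.15 and SPBPB2B2.14c of the right end in coding length and in order. In 4 of these 7 pairs both copies had identical counts. The sum over a pair does not depend on how reads were divided within it, though copies on chromosome I may share reads too. For 5 of the 7 pairs the sums of both Y41F libraries lay above those of both WT libraries, where 19.2% of all genes tested had Y41F higher without overlap. The pairs were set up after the values were seen, and nothing is read from their count.

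The most abundant of these pairs is ftm5 (SPBC1348.02) and SPBPB2B2.19c, annotated as transmembrane helix proteins. Each had 39.1 and 51.0 CPM in Y41F, against 27.8 and 26.9 CPM in WT. Y41F was higher in both libraries, with WT libraries close together. The log2 fold change was 0.72 ± 0.15 (SE), with an edgeR adjusted p of 0.362. DESeq2 called both (adjusted p = 0.0232). When single libraries were left out in edgeR, the log2 fold change ranged from 0.52 (Y41F library 2 omitted) to 0.91 (Y41F library 1 omitted).

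SPBC1348.01 and SPBCPT2R1.01c, uncharacterized, each had 5.54 and 6.60 CPM in Y41F, against 4.30 and 4.14 CPM in WT. The groups did not overlap, and the log2 fold change was 0.52 ± 0.22 (SE; adjusted p = 0.759 in edgeR). SPBC1348.06c and SPBPB2B2.15, with a Vel1p domain, each had 12.50 and 27.94 counts in Y41F, against 6.96 and 0 counts in WT. The ratio of the summed counts was 5.14 (95% exact interval 2.28 to 13.6, counting error only), and the edgeR adjusted p was 0.797. That interval takes the rounded shares of divided reads as whole reads, so it is only approximate.

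In the other 3 pairs the copies had unequal counts. The pair SPBC1348.05 and SPBPB2B2.16c, annotated as transporters, summed to 4.0 and 5.21 CPM in Y41F, against 3.71 and 2.94 CPM in WT. The sum of SPBC1348.07 and SPBPB2B2.14c was 1.46 and 1.34 CPM in Y41F, against 0.760 and 1.2 CPM in WT. In both pairs the lower Y41F sum lay close to the higher WT sum. The pair ftm6 and ftm7, also transmembrane helix genes, summed to 5.15 and 63.9 counts in Y41F, against 5 and 10 counts in WT, so the high sum was that of Y41F library 2 alone.

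Beside these pairs, the left-end stretch holds single genes with mixed directions. SPBC1348.04, a methyltransferase gene, had 7.85 and 2.18 CPM in Y41F, against 3.88 and 3.02 CPM in WT, so the groups overlapped. SPBC1348.08c, a glycoprotein gene, had 1.74 and 2.27 CPM in Y41F, against 2.95 and 3.14 CPM in WT, lower without overlap at -0.59 ± 0.30 (SE; adjusted p = 0.797 in edgeR). The transcription factor gene SPBC1348.12 had 6.39 and 8.10 CPM in Y41F, against 4.64 and 5.56 CPM in WT, higher without overlap (0.51 ± 0.23, SE; adjusted p = 0.774 in edgeR). The phospholipase gene SPBC1348.10c lay at 36.9 and 40.0 CPM in Y41F and at 38.4 and 42.2 CPM in WT, with no separation of the groups.

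The outermost right-end gene, tlh2 (SPBCPT2R1.08c), encodes a RecQ type DNA helicase. It had 32.9 and 14.3 CPM in Y41F, against 44.6 and 46.8 CPM in WT. It was lower in both Y41F libraries, with the difference larger in library 2. The log2 fold change was -0.95 ± 0.37 (SE), with an edgeR adjusted p of 0.724, and it was -1.67 without Y41F library 1 and -0.47 without Y41F library 2. Per length, tlh2 averaged 4.03 ± 2.23 FPKM in Y41F and 7.57 ± 0.53 FPKM in WT (SD, n = 2 each). Its counts were fractional, so reads shared with another gene enter them. The part in the lower level of how such reads were divided was not tested. The related gene tlh1 was not analysed here.

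Its neighbour SPBCPT2R1.04c, uncharacterized, had 17.3 and 2.62 CPM in Y41F, against 5.82 and 0.228 CPM in WT. Library 1 was the higher one in both groups, and Y41F was above WT at each library number, which the labels do not pair. The groups overlapped (log2 fold change 1.72 ± 1.29, SE; edgeR adjusted p = 0.850). The value was -0.19 without Y41F library 1 and 5.36 without WT library 1.

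SPBCPT2R1.02, uncharacterized, had 75.8 and 84.9 counts in Y41F, against 0 and 0 counts in WT. It was the clearest separation of groups in the set, at least 48.2-fold higher in Y41F against a floor of 3 counts over both WT libraries. Its edgeR adjusted p was 0.0799, the lowest of the set. It was called by DESeq2 (adjusted p = 1.54e-05) and in limma on log2(FPKM + 1) (adjusted p = 0.0469). It stayed higher in Y41F whichever library was left out. Both of its Y41F counts are fractional, so reads shared with another gene enter them. The bound of 48.2-fold covers counting error only, not how such reads were divided between genes. The coding length of SPBCPT2R1.02 is 360 bases.

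SPBPB2B2.18, uncharacterized and next inward of SPBPB2B2.19c, had 1.27 and 6.11 CPM in Y41F, against 1.10 and 0.546 CPM in WT. The groups did not overlap, but Y41F library 1 lay close to WT library 1. The log2 fold change was 2.19 ± 0.83 (SE; adjusted p = 0.722 in edgeR), 2.93 without Y41F library 1 and 0.64 without Y41F library 2.

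**Figure D2:**
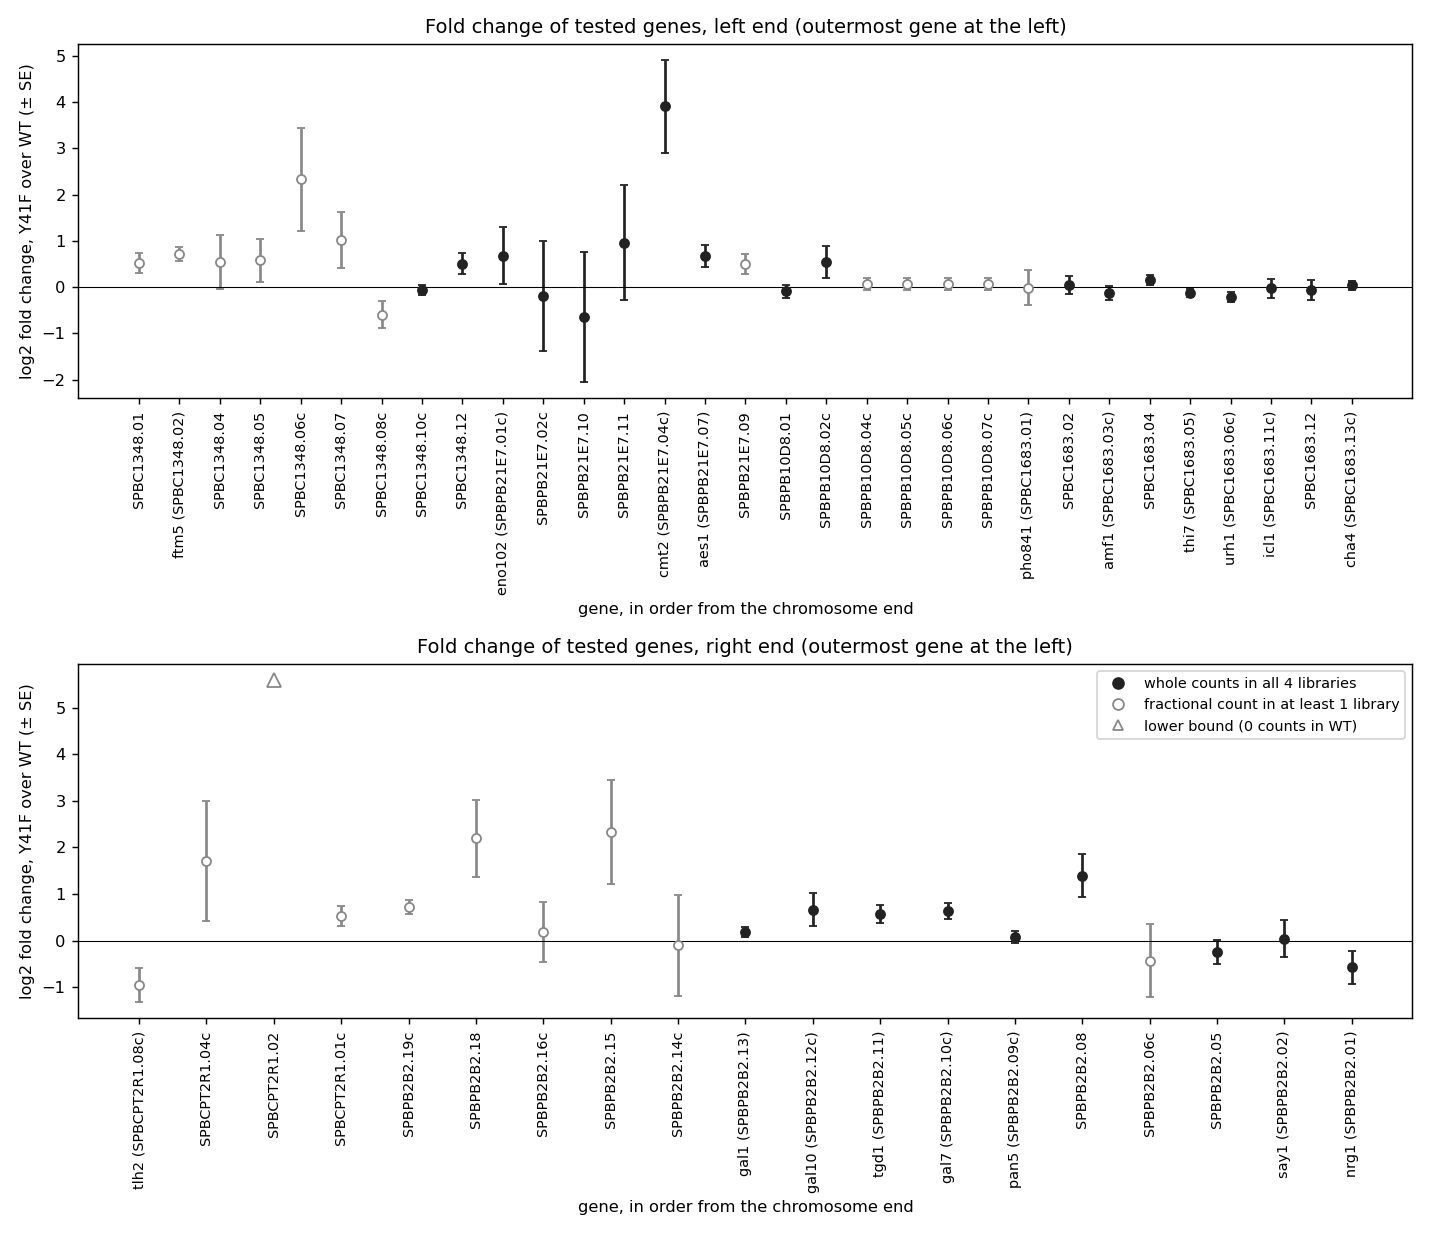
Log2 fold change of Y41F over WT with its SE for the 50 tested genes, in order from the chromosome end (upper plot, left end; lower plot, right end). Filled points had whole counts in all 4 libraries, and open points a fractional count in at least 1. The open triangle is the lower bound of SPBCPT2R1.02, for counting error only. The highest point of the left end is cmt2 at 3.91, and the inner left-end genes from SPBPB10D8.04c to cha4 lie between -0.22 and 0.16.

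The SPBPB21E7 stretch of the left end held the gene with the largest fold change among members with whole counts, cmt2 (SPBPB21E7.04c), annotated as a catechol O-methyltransferase. It had 18.3 and 133 CPM in Y41F, against 3.05 and 7.03 CPM in WT. Both Y41F libraries lay above both WT libraries, and the Y41F libraries lay far apart. The log2 fold change was 3.91 ± 1.00 (SE), with an edgeR adjusted p of 0.468. It was 4.73 without Y41F library 1 (edgeR adjusted p = 5.12e-05) and 1.86 without Y41F library 2 (edgeR adjusted p = 0.0142), and was not called without WT library 1 (3.43) or WT library 2 (4.63).

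Other genes of the stretch differed more between the libraries of a group than between groups. The enolase gene eno102 (SPBPB21E7.01c) had 39.5 and 124 CPM in Y41F, against 29.1 and 72.5 CPM in WT. The uncharacterized gene SPBPB21E7.11 had 26 and 348 counts in Y41F, against 23 and 151 counts in WT. Library 2 was the higher one in each group for both genes, and the groups overlapped. For both, Y41F was above WT at each library number, which the labels do not pair.

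SPBPB21E7.10, which overlaps SPBPB21E7.11 in the annotation, had 3 and 36 counts in Y41F, against 2 and 53 counts in WT. SPBPB21E7.02c, annotated as a phosphoglycerate mutase/6-phosphofructo-2-kinase family gene, had 9 and 24 counts in Y41F, against 1 and 33 counts in WT. Both were again higher in library 2 of each group. The sources used here give no strand setting for the counting, so reads of the overlapping genes SPBPB21E7.10 and SPBPB21E7.11 cannot be told apart with certainty. All 7 tested genes of the stretch were higher in library 2 than in library 1 in Y41F, and 6 of the 7 in WT. Of all 5076 genes tested, 2559 were so in Y41F and 2492 in WT. The labels do not pair libraries of equal number, and in Y41F the number is also the strain.

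The exception in WT was aes1 (SPBPB21E7.07), a gene of the phenazine biosynthesis family, with 122 and 197 CPM in Y41F, against 113 and 87.2 CPM in WT. The groups did not overlap, though Y41F library 1 lay close to WT library 1. Its log2 fold change was 0.67 ± 0.25 (SE; adjusted p = 0.710 in edgeR), 0.99 without Y41F library 1 and 0.29 without Y41F library 2. The L-asparaginase gene SPBPB21E7.09, which releases ammonia from asparagine, had 20.2 and 31.6 CPM in Y41F, against 18.0 and 18.6 CPM in WT, higher without overlap at 0.50 ± 0.22 (SE; adjusted p = 0.766 in edgeR). This fold change was 0.80 without Y41F library 1 and 0.14 without Y41F library 2.

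**Figure D3:**
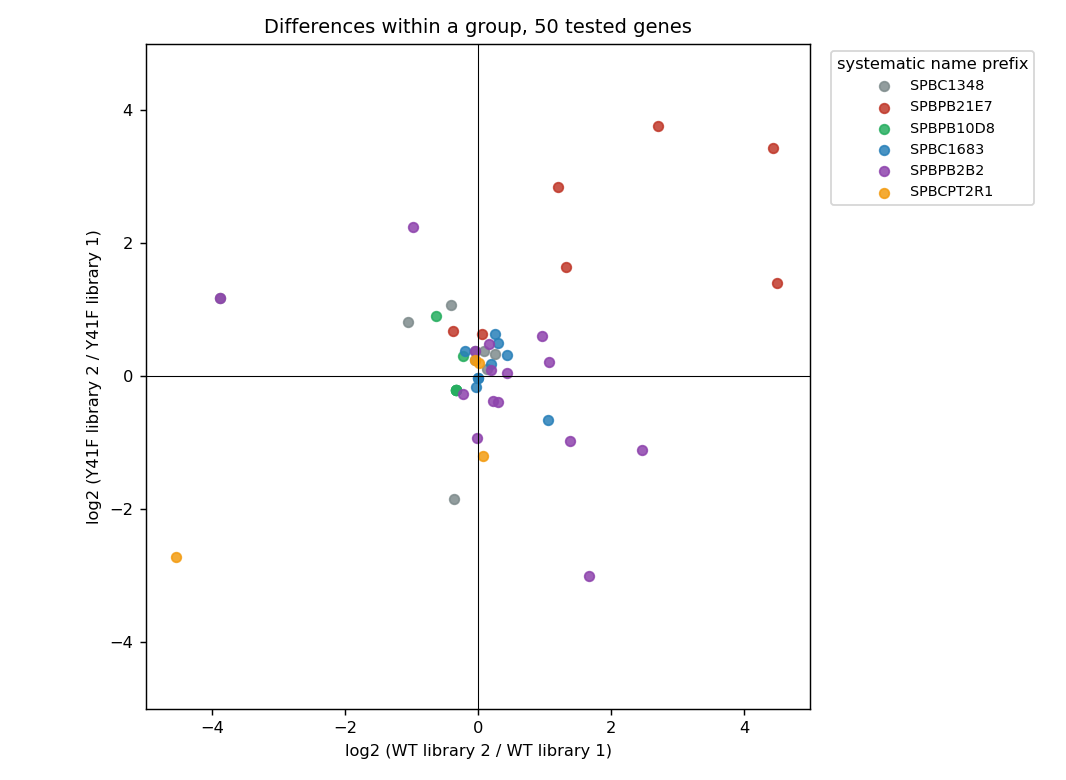
Log2 ratio of library 2 over library 1 in Y41F (vertical axis) and in WT (horizontal axis) for the 50 tested genes, coloured by the prefix of the systematic name, with a prior of 0.5 counts. Of the 7 SPBPB21E7 genes, 6 lie above 0 on both axes, where 1441 of all 5076 genes tested did. These 6 reach 3.76 in Y41F and 4.50 in WT, and SPBCPT2R1.04c lies lowest on the horizontal axis at -4.54.

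The galactose genes form a run of 4 neighbours at the right end: gal1 for galactokinase, gal10 for an epimerase, tgd1 for a nucleotide-sugar dehydratase and gal7 for galactose-1-phosphate uridylyltransferase. The enzymes Gal1, Gal7 and Gal10 convert galactose to a form that enters glycolysis (the Leloir pathway). All 4 had whole counts and fold changes above 0, between 0.18 and 0.66, with adjusted p from 0.495 to 0.811 in edgeR, so 0 of the 4 passed.

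The levels of gal7 were 31.5 and 24.4 CPM in Y41F, against 16.6 and 19.4 CPM in WT. Both Y41F libraries were higher, and the log2 fold change was 0.63 ± 0.17 (SE; adjusted p = 0.495 in edgeR). When single libraries were left out, this value ranged from 0.44 (Y41F library 1 omitted) to 0.81 (Y41F library 2 omitted). The neighbour tgd1 had 12.3 and 12.8 CPM in Y41F, against 7.22 and 9.74 CPM in WT, also without overlap, at 0.56 ± 0.19 (SE; adjusted p = 0.664 in edgeR).

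For gal10 the values were 31.4 and 47.7 CPM in Y41F, against 16.9 and 33.0 CPM in WT. Library 2 was higher in each group, and Y41F was above WT at each library number, which the labels do not pair. The groups overlapped (0.66 ± 0.35, SE; edgeR adjusted p = 0.797). Leaving out Y41F library 2 gave 0.33, leaving out WT library 1 gave 0.26 and leaving out WT library 2 gave 1.22. The most abundant of the run, gal1, had 59.8 and 64.1 CPM in Y41F, against 51.1 and 58.3 CPM in WT, a difference of the same size as that between the WT libraries (0.18 ± 0.11, SE; edgeR adjusted p = 0.811). Summed over the 4 genes, the level was 135 and 149 CPM in Y41F, against 91.8 and 120 CPM in WT. Per length, gal1 averaged 39.8 ± 2.1 FPKM in Y41F and 34.1 ± 4.42 FPKM in WT (SD, n = 2 each).

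**Figure D4:**
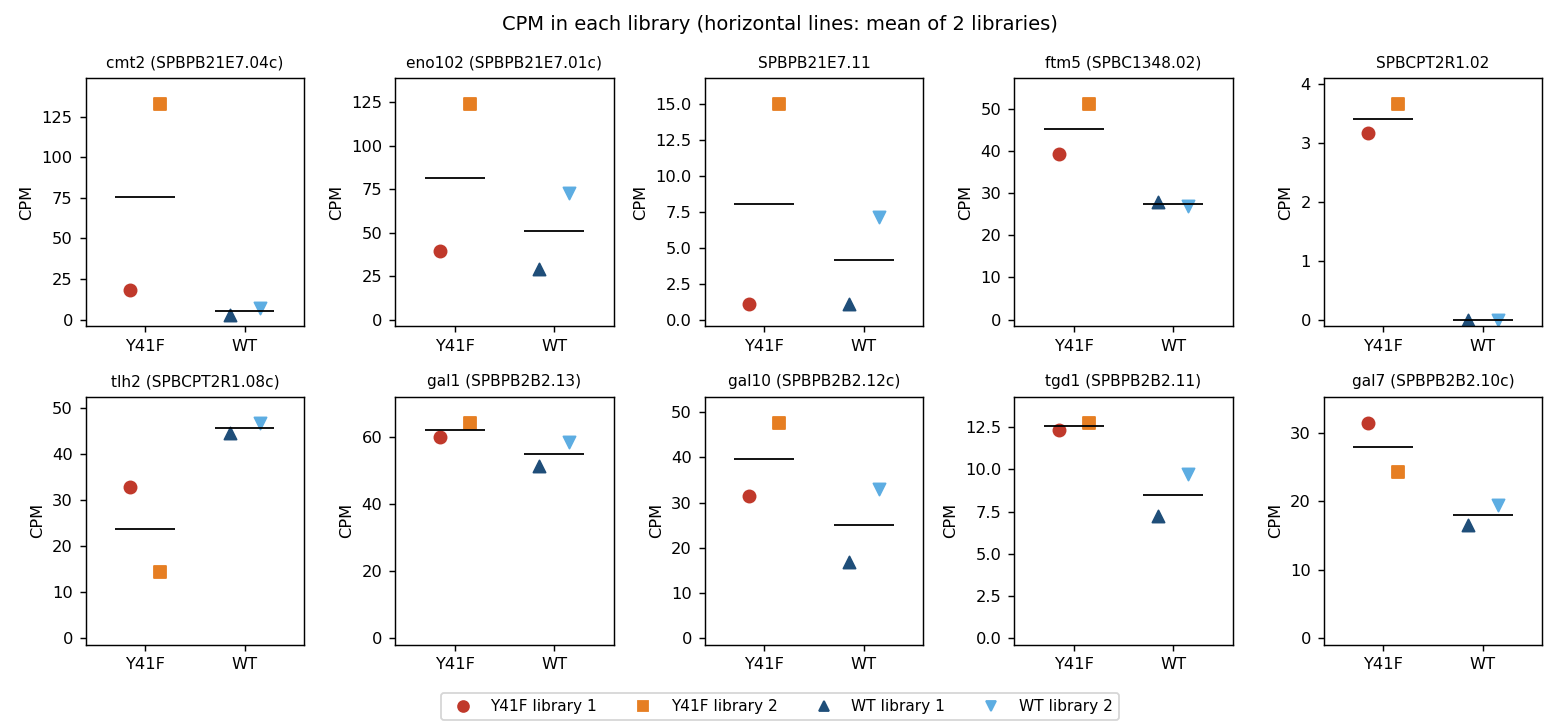
CPM of 10 genes in each library, Y41F at the left and WT at the right of each plot, with horizontal lines at the means of 2 libraries. The groups separate for cmt2, ftm5, SPBCPT2R1.02, tlh2, gal1, tgd1 and gal7, and overlap for eno102, SPBPB21E7.11 and gal10; tlh2 is the one of these lower in Y41F.

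Farther from the left end lie the 6 SPBPB10D8 and 9 SPBC1683 genes. Of these, 1 was higher and 2 were lower in Y41F without overlap, where 19.2% and 18.0% of all genes tested were. Their median level was 112 FPKM in Y41F and 103 FPKM in WT for SPBPB10D8, and 31.4 FPKM in Y41F and 27.3 FPKM in WT for SPBC1683. The 4 transporter genes SPBPB10D8.04c, SPBPB10D8.05c, SPBPB10D8.06c and SPBPB10D8.07c had identical counts, so they are 1 measurement of a repeated gene. Each had 136 and 118 CPM in Y41F, against 134 and 107 CPM in WT. The groups overlapped, at a log2 fold change of 0.07 ± 0.14 (SE; adjusted p = 0.944 in edgeR). The cysteine transporter gene SPBPB10D8.01 had 42.9 and 52.8 CPM in Y41F, against 54.9 and 46.7 CPM in WT. The arylsulfatase gene SPBPB10D8.02c had 44.4 and 83.8 CPM in Y41F, against 53.6 and 34.7 CPM in WT, again with overlap. Its log2 fold change of 0.54 ± 0.34 (SE; adjusted p = 0.818 in edgeR) was 0.93 without Y41F library 1 and 0.01 without Y41F library 2.

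The phosphate transporter gene pho841 (SPBC1683.01) had 255 and 161 CPM in Y41F, against 136 and 284 CPM in WT. The high library was number 1 in Y41F and number 2 in WT, so no difference between the groups could be seen (-0.01 ± 0.38, SE; edgeR adjusted p = 0.995), and the sign changed with the scaling. The value was 0.28 without Y41F library 2 and 0.61 without WT library 2.

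The genes amf1, thi7, urh1, icl1, cha4, SPBC1683.02, SPBC1683.04 and SPBC1683.12 had log2 fold changes between -0.22 and 0.16 (adjusted p from 0.797 to 0.985 in edgeR). Among them, urh1 for a uridine ribohydrolase had 17.8 and 17.5 CPM in Y41F, against 20.5 and 20.5 CPM in WT, with libraries of each group close together (-0.22 ± 0.11, SE). The transporter gene thi7 had 99.8 and 89.4 CPM in Y41F, against 104 and 102 CPM in WT, lower in Y41F without overlap (-0.12 ± 0.09, SE). The transporter gene amf1 had 135 and 176 CPM in Y41F, against 182 and 159 CPM in WT, with overlap. The glycosyl hydrolase gene SPBC1683.04 had 73.9 and 84.1 CPM in Y41F, against 66.2 and 75.6 CPM in WT, also with overlap. The isocitrate lyase gene icl1, of the glyoxylate cycle in other organisms, had 23.3 and 33.0 CPM in Y41F, against 25.8 and 31.6 CPM in WT. The transcription factor gene cha4 had 36.1 and 35.6 CPM in Y41F, against 34.8 and 34.8 CPM in WT, without overlap but at a log2 fold change of only 0.04 ± 0.10 (SE).

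The inner right-end genes were likewise mixed. The pantothenate synthesis gene pan5 (SPBPB2B2.09c), for a 2-dehydropantoate 2-reductase, had 105 and 87.2 CPM in Y41F, against 98.5 and 84.6 CPM in WT, with overlap (0.07 ± 0.13, SE; edgeR adjusted p = 0.940). SPBPB2B2.08, uncharacterized and with whole counts, had 34 and 25 counts in Y41F, against 9 and 11 counts in WT. It was higher in both Y41F libraries, with a ratio of summed counts of 2.65 (95% exact interval 1.57 to 4.65, counting error only) and a log2 fold change of 1.39 ± 0.46 (SE; adjusted p = 0.652 in edgeR).

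The amino-acid permease gene nrg1 (SPBPB2B2.01) had 7.60 and 8.88 CPM in Y41F, against 7.92 and 16.6 CPM in WT. Its value of -0.57 ± 0.36 (SE; adjusted p = 0.811 in edgeR) rested on WT library 2, without which it was 0.06. The phosphatase gene SPBPB2B2.06c had 5.30 and 2.46 CPM in Y41F, against 1.59 and 8.90 CPM in WT, and its direction changed with the library left out. The glutamine amidotransferase family gene SPBPB2B2.05 had 3.76 and 5.30 CPM in Y41F, against 5.01 and 5.65 CPM in WT. The sterol deacetylase gene say1 had 2.97 and 1.55 CPM in Y41F, against 2.20 and 2.18 CPM in WT. None of these separated the groups.

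By annotated product, the set holds 12 transporter or permease genes, all tested, of which 6 had fold changes above 0 and 6 below it, with a median of 0.03. Of 17 genes annotated as uncharacterized or with a transmembrane helix, 12 passed the filter, and of these 10 had fold changes above 0 and 2 below it, with a median of 0.84. The second group had the lower level, with a median of 3.75 FPKM in Y41F and 0.775 FPKM in WT, against 78.1 FPKM in Y41F and 81.3 FPKM in WT for the transporters. A weakly expressed gene passes the filter more readily when 1 group is high, and 14 of these 17 had fractional counts, and the part of either in the medians was not tested. The SPBPB10D8.04c to SPBPB10D8.07c copies enter the first group as 4 genes. The second group likewise counts genes with identical counts separately. These are ftm5 with SPBPB2B2.19c and SPBC1348.01 with SPBCPT2R1.01c, all with fold changes above 0.

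The genes for factors known to act at telomeres or in silencing were compared in the same fit. Of 14 shelterin and telomere genes tested, 7 had fold changes above 0 and 7 below it, and 0 passed (median 0.004, range -0.16 to 0.26, lowest edgeR adjusted p 0.802). Of 31 heterochromatin and silencing genes, 16 were above 0 and 15 below it, and 0 passed (median 0.02, range -0.22 to 0.18, lowest edgeR adjusted p 0.797). DESeq2 called 0 genes of either list, and none had an unadjusted edgeR p under 0.05.

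The smallest p-values among these factors belonged to rik1, clr2 and tpz1. The gene rik1, for a subunit of the complex that contains Clr4, had 70.9 and 70.9 CPM in Y41F, against 60.9 and 65.5 CPM in WT. The gene clr2, for a subunit of the silencing complex SHREC, had 67.0 and 71.2 CPM in Y41F, against 79.1 and 75.6 CPM in WT. The gene tpz1, for a shelterin subunit, had 66.9 and 74.7 CPM in Y41F, against 77.6 and 80.9 CPM in WT. The log2 fold changes of these 3 were 0.17 ± 0.09, -0.16 ± 0.09 and -0.16 ± 0.09 (SE). Their groups did not overlap, where 19.2% of all genes tested were higher and 18.0% lower without overlap. As these 3 were picked by p-value, nothing is read from this. The most abundant were spt16, fft3 and hip3, with log2 fold changes of -0.15 ± 0.09, 0.13 ± 0.11 and -0.05 ± 0.11 (SE).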

How the data were processed

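Each of the 4 libraries has a table in which the authors deposited the expected count, FPKM and length of every gene, per the file headers. Bowtie, BWA and RSEM on the build ASM294v2 are named in the submitters' processing notes, without versions or roles, and strand use is not given there. Every length is a multiple of 3 and is called a coding length here. A gene missing from a table was taken as 0. Names, products and gene order came from the ASM294v3 annotation, to which all 56 genes matched, 20 of them with a symbol. As builds differ, no coordinates or sequences are given.

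Expected counts were rounded and tested on the whole table with edgeR 4.0.16 in R 4.3.3 (TMM, default filter, quasi-likelihood test, Benjamini-Hochberg adjustment over 5076 genes, called under 0.05), and tested on simulated data first. The SE is the absolute log2 fold change over the square root of F. CPM are expected counts over TMM-scaled library sizes. A count was called fractional when more than 0.005 from a whole number. DESeq2 1.42.0, limma 3.58.1 on log2(FPKM + 1), other scaling, no filter, a replicate block and leaving out each library were alternatives. Named were the 10 most abundant genes, the 8 with the smallest p in each direction, genes at 0 in 1 group, gal1, gal7, gal10 and tlh2, and, of the factor lists, the 3 with the smallest p and the 3 most abundant. Other genes were chosen after their values were seen, including pairs of equal coding length. Members and lists were chosen with earlier results of these data known. The name abp1 was left out of the silencing list because it names an actin-binding protein in the annotation, and pcu4 matched no gene. Intervals and floors cover counting error only.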

Additional observations from a re-analysis of the deposited data

How the results depend on the processing

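Over all genes, edgeR called 1 gene; DESeq2 called 68, the fit with a replicate block 87, limma on log2(FPKM + 1) 3, and leaving out 1 library gave 0 to 197. Of the chromosome II subtelomeric genes it called 0; DESeq2 called 3, the replicate block 7 (ftm5 with its copy SPBPB2B2.19c, eno102, cmt2, SPBCPT2R1.04c, SPBCPT2R1.02 and gal10, all higher; adjusted p = 0.0395 for gal10, 0.034 for eno102 and 0.0327 for SPBCPT2R1.04c), limma 1, and leaving out 1 library gave 0 to 8. Library size as the only scaling, no filter and merging genes with the same counts, the last chosen after seeing the data, left both counts as they were. The labels do not say that equal library numbers mark a shared day or culture; deviations of libraries with the same number correlated at 0.451 across genes. The left-end median log2 fold change was 0.0591 to 0.27 when 1 library was left out, and the right-end median 0.32 to 0.79. The log2 ratio of the summed level of the left end was 0.0669 to 0.30 without 1 library and 0.31 on FPKM, and that of the right end was 0.43 on FPKM. Fold changes close to 0 changed sign: pho841 was 0.0177 with library size only, 0.041 with the replicate block and 0.0881 on log2(FPKM + 1), SPBPB21E7.02c was 0.0289 with the replicate block and 0.10 on log2(FPKM + 1), and icl1 was 0.0155 and 0.00535 with library size only and on log2(FPKM + 1). Leaving out 1 library changed the sign of 23 genes, with ranges of -0.45 to 0.61 for pho841, -0.34 to 0.0567 for amf1, -0.0844 to 0.24 for SPBPB10D8.04c, SPBPB10D8.05c, SPBPB10D8.06c and SPBPB10D8.07c, -0.0618 to 0.20 for pan5, -1.01 to 0.0567 for nrg1, -0.13 to 0.00086 for SPBC1348.10c, -0.65 to 1.18 for SPBC1348.04, -0.36 to 1.49 for eno102, -1.15 to 3.76 for SPBPB21E7.02c, -3.32 to 3.08 for SPBPB21E7.10, -1.92 to 2.89 for SPBPB21E7.11, -0.24 to 0.0648 for SPBPB10D8.01, -0.15 to 0.29 for SPBC1683.02, -0.30 to 0.21 for icl1, -0.42 to 0.23 for SPBC1683.12, -0.19 to 5.36 for SPBCPT2R1.04c, -0.39 to 1.08 for SPBPB2B2.16c, -2.51 to 1.03 for SPBPB2B2.14c, -1.19 to 1.28 for SPBPB2B2.06c and -0.49 to 0.43 for say1. The cause was not tested. A fit that leaves out a library has 1 library in that group, which is assumed to vary like the other group. The 6 genes that did not pass the expression filter were not called where DESeq2 or edgeR without the filter tested them, and their low counts limit what can be detected.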
